A study of Mus musculus with 13 samples.

Results

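Wnt and R-spondin ligands of the rectal wall were followed in a mouse model of rectal inflammation and cancer. The group was defined by a list of names, with no threshold on measured values: Wnt2, Wnt2b, Wnt4, Wnt5a, Wnt6, Wnt10a, Wnt11, Rspo1, Rspo2 and Rspo3. All 10 were measured, among 19938 genes on an Affymetrix Mouse Gene 1.0 ST array, with 1 transcript cluster (the set of probes along 1 gene) taken per gene, the one with the highest mean over the arrays. Levels are log2 values, so that a difference of 1 is a doubling, and because probes of different genes bind differently, levels are compared between groups and never between genes.

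Every array held RNA from 1 sample, and the 13 arrays fell into 3 groups. The 5 adenocarcinoma arrays (numbers 1, 2, 3, 4 and 6; 53, 60, 60, 64 and 80 weeks old; 2 females and 3 males) and the 4 inflamed mucosa arrays (numbers 1 to 4; 53, 60, 60 and 64 weeks; 1 female and 3 males) came from rectal prolapses of mutant α6fl/fl Villin-Cre mice, which lack the laminin receptor subunit α6 integrin in the intestinal epithelium. Tumour and adjacent inflamed mucosa were cut out of frozen sections. The 4 normal mucosa arrays (numbers 1, 2, 4 and 6; 53, 60, 64 and 70 weeks; 2 females and 2 males) came from matched control mice, whose rectal mucosa was scraped. Tissue state, genotype and way of collection therefore changed together between normal mucosa and the other groups, and their parts cannot be told apart. One label field gives the α6fl/fl Villin-Cre genotype for all 13 samples, whereas another calls the normal samples controls. Villin-Cre acts in intestinal epithelial cells, so that the stromal cells that make most of these ligands kept their α6 integrin genes. The labels do not say that each array came from a separate mouse, and where tumour and inflamed mucosa share a number, sex and age agree. The p-values therefore measure the spread between these samples.

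Wnt proteins are secreted lipid-modified ligands that bind Frizzled receptors. With the co-receptors Lrp5 and Lrp6 they stabilise β-catenin, and with Ror2, Ryk or Ptk7 they act on cell polarity and movement without it. R-spondins bind Lgr4, Lgr5 and Lgr6 and remove the ubiquitin ligases Rnf43 and Znrf3, which otherwise clear Frizzled receptors from the cell surface. In the large intestine, mesenchymal cells under and around the crypts are the main source of both, and stem cells at the crypt base depend on them.

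Promoter sequences were available for 6 of the 10 genes, in 7 entries from RefSeq (assembly GRCm38.p6), and 3 of them are shown because they stand for the 3 behaviours met below: a gene higher in both diseased tissues (Wnt2b), a gene lower in tumours than in inflamed mucosa (Rspo1) and a gene with no called difference (Wnt11). Each is the 250 bases upstream of the annotated start, 5′ to 3′ on the gene's strand, with motif matches in capitals. The window of Wnt2b lies at chr3:104961710-104961959 on the minus strand, that of Rspo1 at chr4:124986180-124986429 on the plus strand and that of Wnt11 (its first entry) at chr7:98834862-98835111 on the plus strand.
Wnt2b: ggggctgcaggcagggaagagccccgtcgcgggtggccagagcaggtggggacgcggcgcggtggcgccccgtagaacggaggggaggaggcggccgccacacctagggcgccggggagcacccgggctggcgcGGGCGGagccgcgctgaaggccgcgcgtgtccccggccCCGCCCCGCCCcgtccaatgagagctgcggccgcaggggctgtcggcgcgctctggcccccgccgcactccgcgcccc
Rspo1: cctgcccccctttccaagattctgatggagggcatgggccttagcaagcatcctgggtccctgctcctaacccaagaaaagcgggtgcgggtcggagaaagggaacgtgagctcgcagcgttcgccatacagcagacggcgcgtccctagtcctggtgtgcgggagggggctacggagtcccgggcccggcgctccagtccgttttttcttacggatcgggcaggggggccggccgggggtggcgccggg
Wnt11: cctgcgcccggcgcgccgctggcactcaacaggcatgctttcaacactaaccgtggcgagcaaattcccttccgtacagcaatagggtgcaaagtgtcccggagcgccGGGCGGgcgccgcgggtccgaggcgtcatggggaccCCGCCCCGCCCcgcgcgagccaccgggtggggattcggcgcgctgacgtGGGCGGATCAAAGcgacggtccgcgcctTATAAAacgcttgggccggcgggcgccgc
The motifs searched, on both strands, were TCF/LEF (ATCAAAG), AP-1 (TGANTCA), forkhead (TGTTTAC), GLI (GACCACC), STAT (TTCNNNGAA), Sp/KLF (GGGCGG) and the TATA box (TATAAA). The capitals in the Wnt2b window mark 3 Sp/KLF matches, the last pair of which overlaps by 1 base, and 80.8% of its bases are G or C, against a median of 52.4% over 32851 promoters. The Rspo1 window (66.8% G or C) held none of the 7 motifs. The Wnt11 window (70.8% G or C) held 4 Sp/KLF matches, 1 TATA match that begins at position -29, where -1 is the last base before the start, and 1 TCF/LEF match, the letters bound by the nuclear effectors of β-catenin, that begins at position -51. TCF/LEF matches occur in 3.205% of all such promoters, TATA matches in 12.368% and Sp/KLF matches in 32.742%. AP-1 (6.749%), forkhead (3.166%), GLI (2.344%) and STAT (7.02%) matches were found in none of the 7 entries. Of the other entries, Wnt2 held 1 Sp/KLF match, Wnt4 8 and Wnt6 6, and the second entry of Wnt11 held no match. A match describes letters only and shows no bound site.

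Marker scores of several cell types differed between the groups, and their part in the ligand levels was not tested. Epithelial marker scores (the mean log2 level of 10 genes such as Epcam and Cdh1) were alike, between 11.44 and 11.69 on all 13 arrays. Gene by gene, 3 of 10 were lower in inflamed than in normal mucosa, among them Cdh1 (-0.33 ± 0.08, limma adjusted p = 0.00839). In tumours 1 was higher and 2 lower than in normal mucosa, and 1 was higher than in inflamed mucosa. Of all genes, 13% were lower in the first comparison, 16.4% higher and 19.4% lower in the second and 2.91% higher in the third. Fibroblast scores (11 genes) were 6.96 to 8.05 in normal mucosa, 9.23 to 9.70 in inflamed mucosa and 9.27 to 9.72 in tumours, and smooth muscle scores (10 genes) were 6.50 to 7.96, 10.15 to 11.13 and 8.50 to 8.77. In such bulk samples, fewer cells of a type and less RNA per cell cannot be told apart. The highest normal values of both stromal scores belonged to normal mucosa 6. Squamous epithelial scores (8 genes) were highest on normal mucosa 1 (10.30), adenocarcinoma 2 (9.01) and adenocarcinoma 3 (7.88), the 3 arrays with Krt5 above 10 (12.10, 11.17 and 10.70). They were 6.70 to 7.06 on the other tumours and 5.86 to 6.21 on the remaining arrays, and Dsg3 read 7.27 to 8.63 on all 5 tumours and 10.03 on normal mucosa 1 against 4.75 to 5.37 elsewhere. Results were recomputed without the 3 arrays with high Krt5. Itga6, the targeted gene, read 10.75 to 11.16 in normal mucosa, 10.90 to 11.20 in inflamed mucosa and 11.44 to 11.62 in tumours. The sources used here do not name the deleted exons, so this level is no check of the genotype. Of transcripts that are absent by sex, Xist read 4.75 to 5.37 on male arrays. On female arrays Kdm5d read 5.24 to 5.57, Eif2s3y 3.60 to 4.07 and Uty 3.78 to 4.13. The highest of these values, 5.57 of Kdm5d, serves below as the level of background. Background thus differs between genes, and this level is a rough guide.

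The ligands separated into a few that differed widely and many that hardly moved. Against normal mucosa, Wnt5a, Wnt2b and Rspo3 rose and Wnt10a fell in inflamed mucosa, and the same 4 genes moved the same way in tumours. Between the diseased tissues, Wnt5a was higher in tumours while Rspo3 and Rspo1 were lower. Inflamed mucosa thus had 3 of 10 ligands higher than normal mucosa and 1 lower, where 13.7% of all genes tested were higher and 13% lower (limma, adjusted p below 0.05). Tumours had 3 of 10 higher and 1 lower than normal mucosa, where 16.4% of all genes were higher and 19.4% lower. Tumours had 1 of 10 higher and 2 lower than inflamed mucosa, where 2.91% of all genes were higher and 4.21% lower. The median difference over the 10 ligands was 0.12, -0.14 and 0.01 in these 3 comparisons, and over all genes -0.09, -0.10 and -0.01. The first 2 comparisons share the normal arrays. Of the 4 calls between tumours and normal mucosa, 2 (Wnt2b and Wnt5a) were left without adenocarcinoma 2, without adenocarcinoma 4, without normal mucosa 1 or without the 3 arrays with high Krt5. Of the 2 ligands lower in tumours than in inflamed mucosa, 1 (Rspo3) was left without adenocarcinoma 2, 3 or 6 or inflamed mucosa 2 or 4. It was also the only one left in a fit of the arrays paired by number, where 1 of 10 was higher (Wnt5a), beside 3.67% of all genes higher and 5.89% lower.

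**Figure D1:**
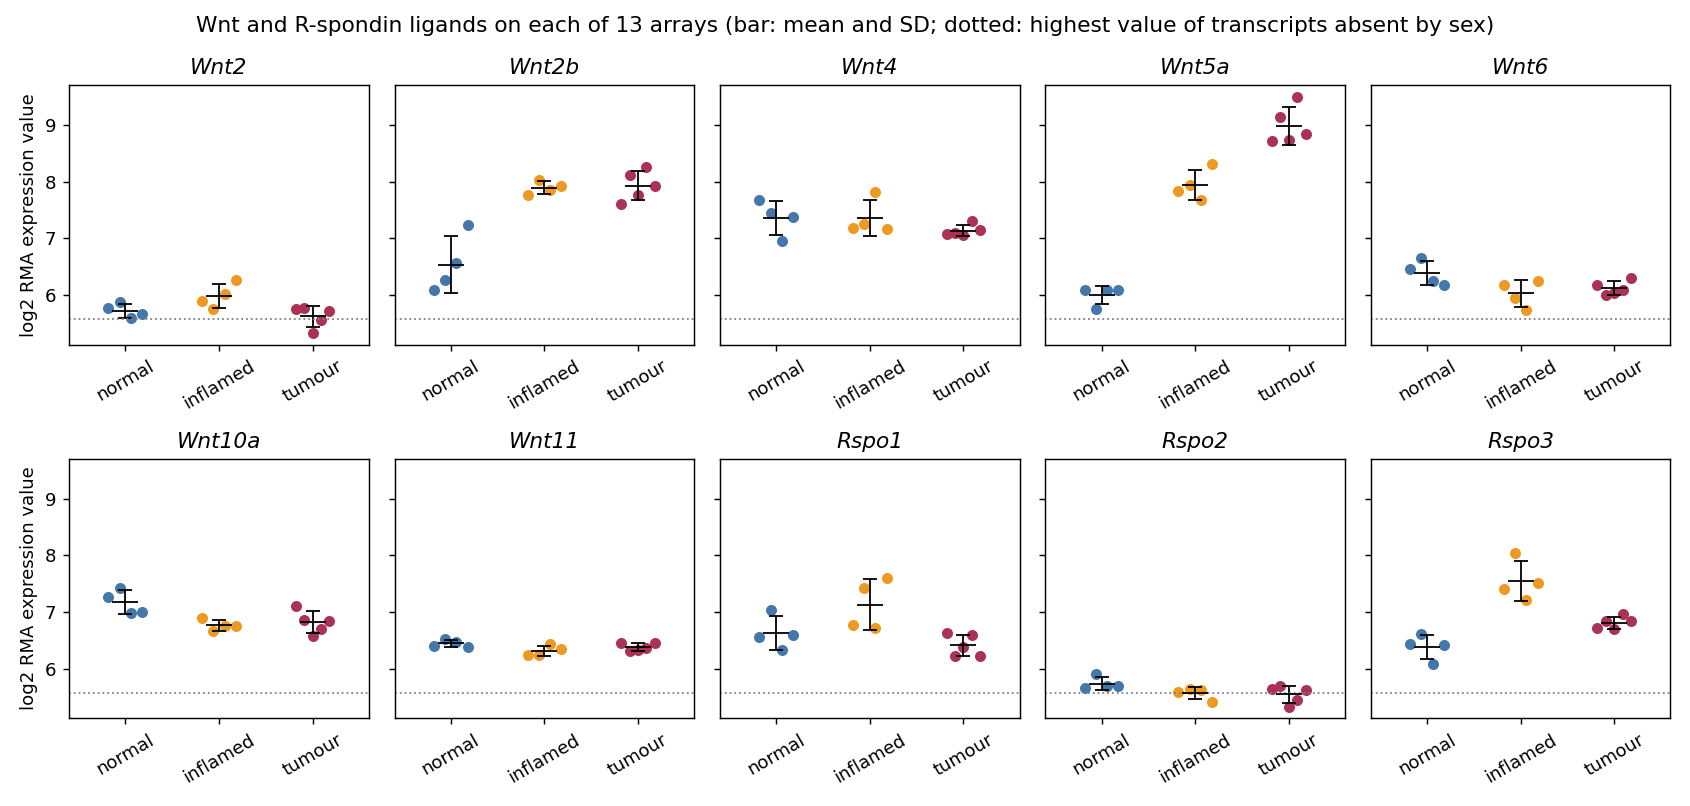
Log2 RMA expression value of each ligand (1 panel per gene) on each of 13 arrays, in normal mucosa (n = 4), inflamed mucosa (n = 4) and tumours (n = 5). Points are arrays, bars are the mean and SD, and the dotted line is the highest value of transcripts absent by sex (5.57). Wnt5a steps up from normal to inflamed to tumour without overlap, Wnt2b is high in both diseased tissues, Rspo3 peaks in inflamed mucosa, and Wnt2 and Rspo2 lie near the dotted line.

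**Figure D2:**
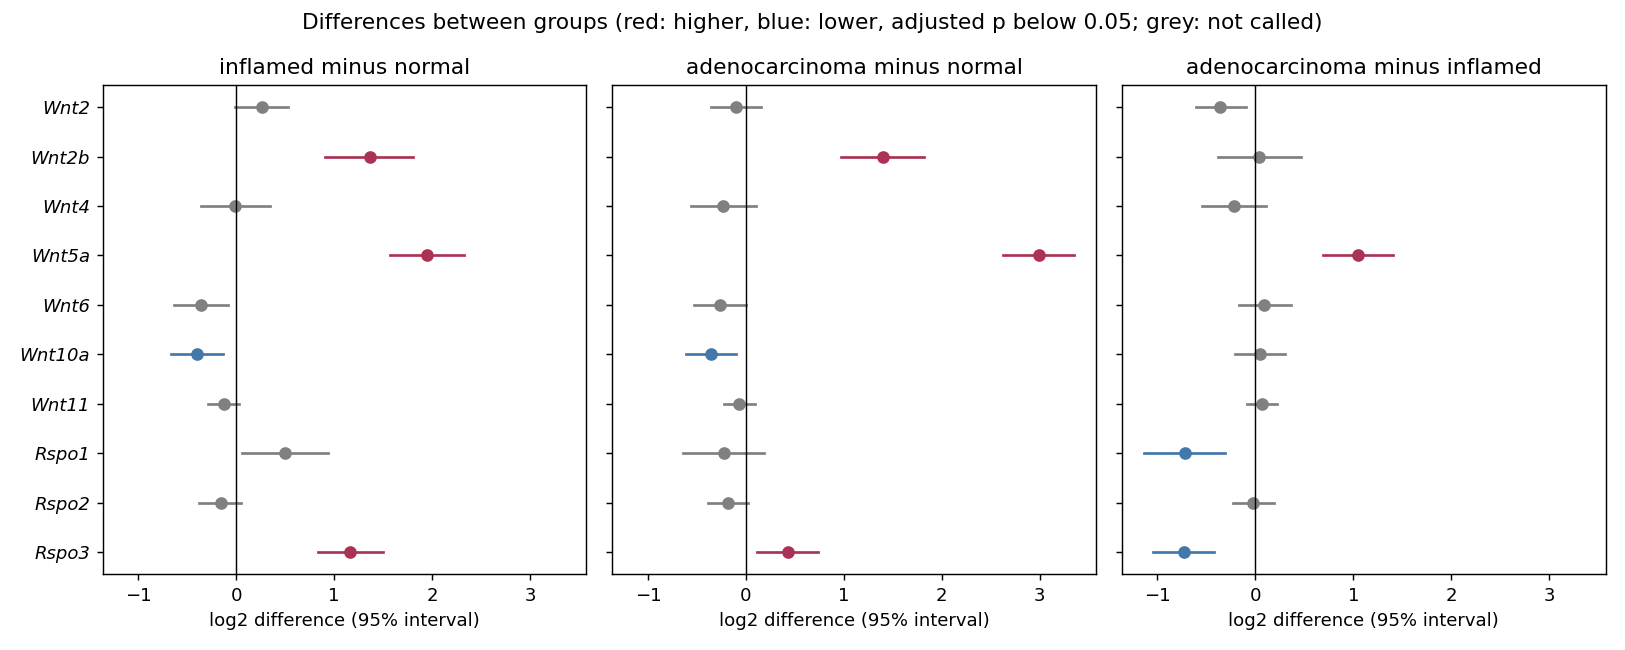
Difference in log2 expression between groups for each ligand, with its 95% interval from limma, in 3 panels for inflamed minus normal, adenocarcinoma minus normal and adenocarcinoma minus inflamed. Red marks a higher and blue a lower level at adjusted p below 0.05. The largest is Wnt5a in tumours against normal mucosa (2.99), and in the last panel Wnt5a lies to the right of 0 and Rspo1 and Rspo3 to the left.

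Wnt5a, the best known β-catenin-independent Wnt, which acts through Ror2 and is made by mesenchyme around the crypts and in healing wounds, had the widest range of the 10 ligands. It read 6.08, 5.75, 6.08 and 6.08 on normal mucosa 1, 2, 4 and 6, not far above the background level of 5.57. Inflamed mucosa 1 to 4 read 7.84, 7.95, 7.67 and 8.31. Adenocarcinomas 1, 2, 3, 4 and 6 read 8.71, 9.14, 8.73, 9.50 and 8.85. The 3 groups did not overlap: every inflamed array lay above every normal array, and every tumour above every inflamed array. The inflamed mean of 7.94 ± 0.27 (SD, n = 4) was 3.85-fold above the normal mean of 6.0 ± 0.16 (n = 4), a log2 difference of 1.95 ± 0.18 (SE; limma adjusted p = 5.36e-06). The tumour mean of 8.99 ± 0.33 (n = 5) was 7.95-fold above normal, a difference of 2.99 ± 0.17 (adjusted p = 4.06e-08), which ranked 31st by p among the 19938 genes. Tumours exceeded inflamed mucosa 2.06-fold (1.05 ± 0.17, adjusted p = 0.00202). With 1 array left out at a time the 3 differences stayed at 1.82 to 2.04, 2.86 to 3.06 and 0.92 to 1.17, each still called.

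Stromal scores moved with the groups in which Wnt5a differed. Both scores were lower in normal mucosa than elsewhere. Normal mucosa 6, with a fibroblast score of 8.05 against 6.96 to 7.15 on the other normal arrays, read 6.08 for Wnt5a, the same as normal mucosa 1 and 4. Between tumours and inflamed mucosa the fibroblast scores overlapped (9.27 to 9.72 and 9.23 to 9.70), and the smooth muscle scores did not (8.50 to 8.77 and 10.15 to 11.13). Fibroblast markers differed between these 2 tissues one by one, with 4 of 11 higher and 1 lower in tumours (2 lower without normal mucosa 6, and 5 higher and 3 lower in the paired fit). Of all genes, 2.91% were higher and 4.21% lower in that comparison (3.67% and 5.89% in the paired fit). Beside the fibroblast score in the model, the Wnt5a excess of tumours over inflamed mucosa was 1.05 (limma adjusted p = 0.00248). The mean score was 9.55 in both tissues, so this fit could hardly move the difference and is no test of fibroblast content. A score that does not overlap between 2 groups stands in for the group, so no reading of the ligands was taken from the other fits either.

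Wnt2b, a β-catenin-activating Wnt made by mesenchymal cells that supports colonic stem cells, was higher in both diseased tissues alike. It read 6.08, 6.26, 6.57 and 7.23 on normal mucosa 1, 2, 4 and 6. Inflamed mucosa 1 to 4 read 7.76, 8.03, 7.85 and 7.92. The 5 tumours, in number order, read 7.60, 8.11, 7.76, 8.26 and 7.93. No diseased array fell to the highest normal one, whereas tumours and inflamed mucosa overlapped. Inflamed mucosa (7.89 ± 0.11, SD, n = 4) lay 2.56-fold above normal mucosa (6.54 ± 0.51, n = 4), a log2 difference of 1.36 ± 0.21 (SE; limma adjusted p = 0.000394). Tumours (7.93 ± 0.26, n = 5) lay 2.63-fold above normal (1.40 ± 0.20, adjusted p = 0.000128). The difference between tumours and inflamed mucosa was 0.04, with a 95% interval from -0.38 to 0.47 (adjusted p = 0.96), which leaves room for a modest difference either way. The normal spread was the widest of any group of this gene, and its top value came from normal mucosa 6, the normal array with the highest fibroblast and smooth muscle scores. Leaving that array out gave the largest differences, 1.59 and 1.63. The part of stromal content in the Wnt2b differences was not tested, since the scores do not overlap between normal mucosa and the other groups.

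Wnt2, a close relative of Wnt2b made by stromal cells, was near background. Its values were 5.77, 5.87, 5.59 and 5.66 in normal mucosa (numbers 1, 2, 4 and 6), 5.89, 5.75, 6.02 and 6.26 in inflamed mucosa (numbers 1 to 4) and 5.75, 5.77, 5.33, 5.55 and 5.71 in tumours (numbers 1, 2, 3, 4 and 6). Adenocarcinomas 3 and 4 read below the background level of 5.57, and all 3 groups overlapped. The inflamed mean was highest, 0.26 ± 0.13 above normal (limma adjusted p = 0.134), and tumours were 0.36 ± 0.12 (log2) below inflamed mucosa (-0.36, adjusted p = 0.0923). Neither passed the test, apart from the former after cyclic loess between arrays (0.39, adjusted p = 0.0152).

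Wnt4 and Wnt11, which signal with or without β-catenin depending on the receptor, showed no called difference. Wnt4 read 6.95 to 7.68 in normal mucosa, 7.16 to 7.82 in inflamed mucosa and 7.06 to 7.30 in tumours. Its 3 differences were -0.01 (95% interval -0.36 to 0.34), -0.23 (-0.56 to 0.10) and -0.22 (-0.55 to 0.11), in the order inflamed minus normal, adenocarcinoma minus normal and adenocarcinoma minus inflamed. A second transcript cluster of Wnt4 read 6.17 to 6.84, 6.09 to 6.55 and 6.30 to 6.66 in the same groups, also with overlap throughout. Wnt11 was the steadiest of the 10, with an SD of 0.09 over 13 arrays and group means of 6.45 ± 0.07, 6.31 ± 0.09 and 6.38 ± 0.07 (SD) in normal mucosa, inflamed mucosa and tumours. Its intervals, -0.29 to 0.03, -0.22 to 0.09 and -0.09 to 0.22, all lay within 0.29 of 0.

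Wnt6 and Wnt10a, β-catenin-activating Wnts known mainly from epithelia such as skin, are next to each other on chromosome 1 (RefSeq, GRCm38.p6). Both had their highest means in normal mucosa. Wnt10a read 7.27, 7.43, 6.99 and 7.0 on normal mucosa 1, 2, 4 and 6. Inflamed mucosa 1 to 4 read 6.90, 6.66, 6.76 and 6.76, and the tumours 7.10, 6.86, 6.58, 6.70 and 6.85. All inflamed arrays lay below all normal ones, although the lowest normal value (6.99) was close to the highest inflamed value (6.90), and adenocarcinoma 1 overlapped normal mucosa. Wnt10a was 1.32-fold lower in inflamed than in normal mucosa (-0.40 ± 0.12, limma adjusted p = 0.0294) and 1.28-fold lower in tumours (-0.36 ± 0.12, adjusted p = 0.0323). Both calls were small and fragile. The first was lost without inflamed mucosa 2, 3 or 4 or normal mucosa 1 or 2 (-0.47 to -0.32 over all arrays left out), and the second without adenocarcinoma 2, 3 or 4 or normal mucosa 1 or 2 (-0.43 to -0.27). Both were lost without the 3 arrays with high Krt5 (-0.37 and -0.26), the first also with array weights (-0.34, adjusted p = 0.0570) and the second in a fit of the 2 groups alone (-0.36, adjusted p = 0.0610). Wnt6 read 6.18 to 6.65 in normal mucosa, 5.74 to 6.25 in inflamed mucosa and 6.0 to 6.30 in tumours, with overlap. It was 0.36 ± 0.13 below normal in inflamed mucosa (-0.36, adjusted p = 0.0573), a difference called only without inflamed mucosa 4 (-0.43, adjusted p = 0.0418) or without normal mucosa 6 (-0.42, adjusted p = 0.0357) among the arrays left out in turn. In tumours it was -0.26 (adjusted p = 0.109) against normal mucosa.

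Rspo3, the R-spondin held to be the main one of the adult colon, where it is made by stromal and lymphatic endothelial cells, was highest in inflamed mucosa. It read 6.43, 6.61, 6.09 and 6.41 on normal mucosa 1, 2, 4 and 6. Inflamed mucosa 1 to 4 read 7.41, 8.05, 7.22 and 7.51. The tumours read 6.71, 6.85, 6.70, 6.96 and 6.84. The groups did not overlap, with all 5 tumours in a narrow band between the highest normal and the lowest inflamed array. Inflamed mucosa (7.55 ± 0.35, SD, n = 4) was 2.24-fold above normal mucosa (6.39 ± 0.22, n = 4), a log2 difference of 1.16 ± 0.16 (SE; limma adjusted p = 0.000133). Tumours (6.81 ± 0.11, n = 5) were 1.66-fold below inflamed mucosa (-0.73 ± 0.15, adjusted p = 0.00841), and this call held with any 1 array left out (-0.84 to -0.57). Tumours were 1.34-fold above normal (0.43 ± 0.15, adjusted p = 0.0381), a call lost without adenocarcinoma 2, 4 or 6, without normal mucosa 1, 4 or 6, without the 3 arrays with high Krt5 (0.47, adjusted p = 0.121) and with all transcript clusters tested (adjusted p = 0.0587).

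Several marker scores moved with Rspo3. Inflamed mucosa 2, its highest array, also had the highest smooth muscle (11.13), lymphatic endothelial (8.61) and enteric neuron (7.61) scores of the 13. Smooth muscle markers were lower in tumours than in inflamed mucosa in 9 of 10 genes (10 of 10 in the paired fit). Of all genes, 4.21% were lower, and 5.89% in the paired fit. None of 5 lymphatic markers was called (3 at an unadjusted p below 0.05, limma), and 1, Lyve1, was lower in the paired fit. By its mean Pdpn was higher in tumours (9.41 against 8.99 in inflamed mucosa), whereas the other lymphatic markers were lower. Macrophage scores (8 genes) were also higher in inflamed mucosa, 8.34 to 8.97 against 7.61 to 8.33 in tumours. Of these genes 2 of 8 were called lower in tumours, and 8 of 8 in the paired fit. Beside the fibroblast score in the model, the tumour differences of Rspo3 and Rspo1 from inflamed mucosa remained called. The mean fibroblast score was 9.55 in both tissues, so that fit could hardly move these differences. The part of muscle, nerve or macrophage content in them was not tested: the smooth muscle score does not overlap between the 2 tissues, and with it in the model 12 of 19938 genes stayed called.

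Rspo1, a stromal R-spondin that stimulates crypt growth, followed Rspo3 in part. It read 6.56, 7.04, 6.33 and 6.60 on normal mucosa 1, 2, 4 and 6. Inflamed mucosa 1 to 4 read 6.77, 7.42, 6.72 and 7.61, and the tumours 6.63, 6.23, 6.38, 6.59 and 6.22. Inflamed mucosa 2 and 4 stood high, inflamed mucosa 1 and 3 lay within the normal range, and all tumours lay below all inflamed arrays. Rspo1 was 1.65-fold lower in tumours than in inflamed mucosa (-0.72 ± 0.19, limma adjusted p = 0.0374). This call was lost without adenocarcinoma 2, 3 or 6, without inflamed mucosa 2 or 4 (-0.86 to -0.56, adjusted p up to 0.129), with the shared number as a replicate block (-0.67, adjusted p = 0.0582) and without the 3 arrays with high Krt5 (-0.65, adjusted p = 0.154). It was lost as well with sex, age, arrays centred on their medians or all transcript clusters tested (-0.72 to -0.70, adjusted p from 0.0501 to 0.0763). Inflamed mucosa exceeded normal mucosa by 0.50 ± 0.20 (adjusted p = 0.0802), which was called without inflamed mucosa 3 (0.64, adjusted p = 0.0395) or normal mucosa 2 (0.64, adjusted p = 0.0480). Inflamed mucosa 4, the array with the highest Rspo1, had a mesothelial score (5 genes) of 7.24 against 6.13 to 6.52 on the other 12 arrays. Upk3b (7.54), Upk1b (7.54) and Lrrn4 (7.16) were highest there, whereas Wt1 (6.80) lay within the range of the others (6.26 to 6.84) and Msln (7.18) below all tumours (7.40 to 8.36). Their part in its Rspo1 level was not tested.

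Rspo2, an R-spondin whose expression drives some colorectal tumours after gene fusion, was not clearly above background in any group. It read 5.66, 5.91, 5.69 and 5.69 in normal mucosa, 5.59, 5.64, 5.63 and 5.41 in inflamed mucosa and 5.65, 5.69, 5.33, 5.44 and 5.63 in tumours, in number order. Adenocarcinomas 3 and 4 and inflamed mucosa 4 read below 5.57. The differences were -0.16 (95% interval -0.38 to 0.05), -0.18 (-0.39 to 0.02) and -0.02 (-0.23 to 0.19), none called, although every inflamed array lay just below every normal one. No level of Rspo2 can be read from these arrays beyond a value near background.

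Within the 4 numbers shared by tumour and inflamed mucosa, the directions of 3 ligands repeated. Wnt5a was higher in the tumour by 0.87, 1.20, 1.06 and 1.19 in numbers 1 to 4. Rspo3 differed by -0.70, -1.20, -0.52 and -0.55 and Rspo1 by -0.14, -1.19, -0.34 and -1.02, lower in 4 of 4. Wnt2b went both ways (-0.16, 0.08, -0.09 and 0.34). With the shared number as a block in these 8 arrays, limma gave 1.08 for Wnt5a (adjusted p = 0.000889) and -0.74 for Rspo3 (adjusted p = 0.0118), while Rspo1 (-0.67, adjusted p = 0.0582) was not called.

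**Figure D3:**
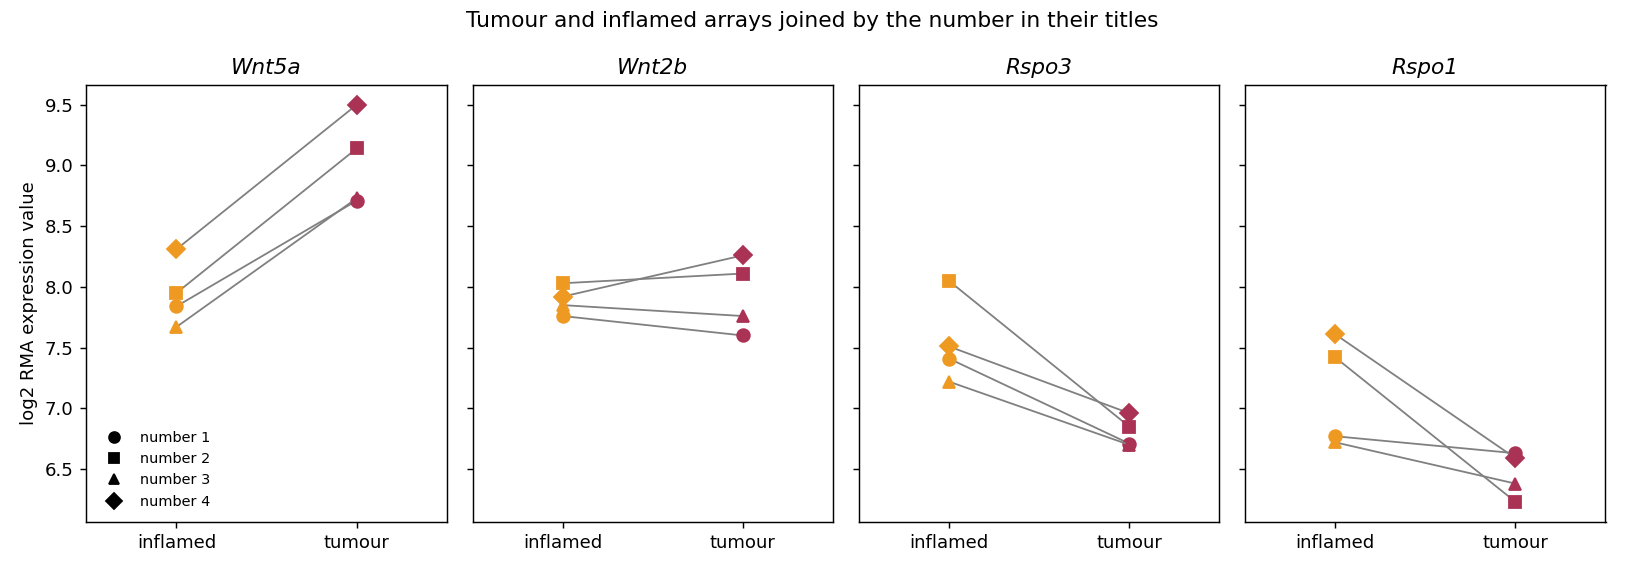
Log2 RMA expression value of Wnt5a, Wnt2b, Rspo3 and Rspo1 in inflamed mucosa and adenocarcinoma, with arrays of the same number (1 to 4, by marker shape) joined by a line. All 4 lines rise for Wnt5a and fall for Rspo3 and Rspo1, as any pairing would show, since the groups do not overlap. The lines of Wnt2b go both ways.

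**Figure D4:**
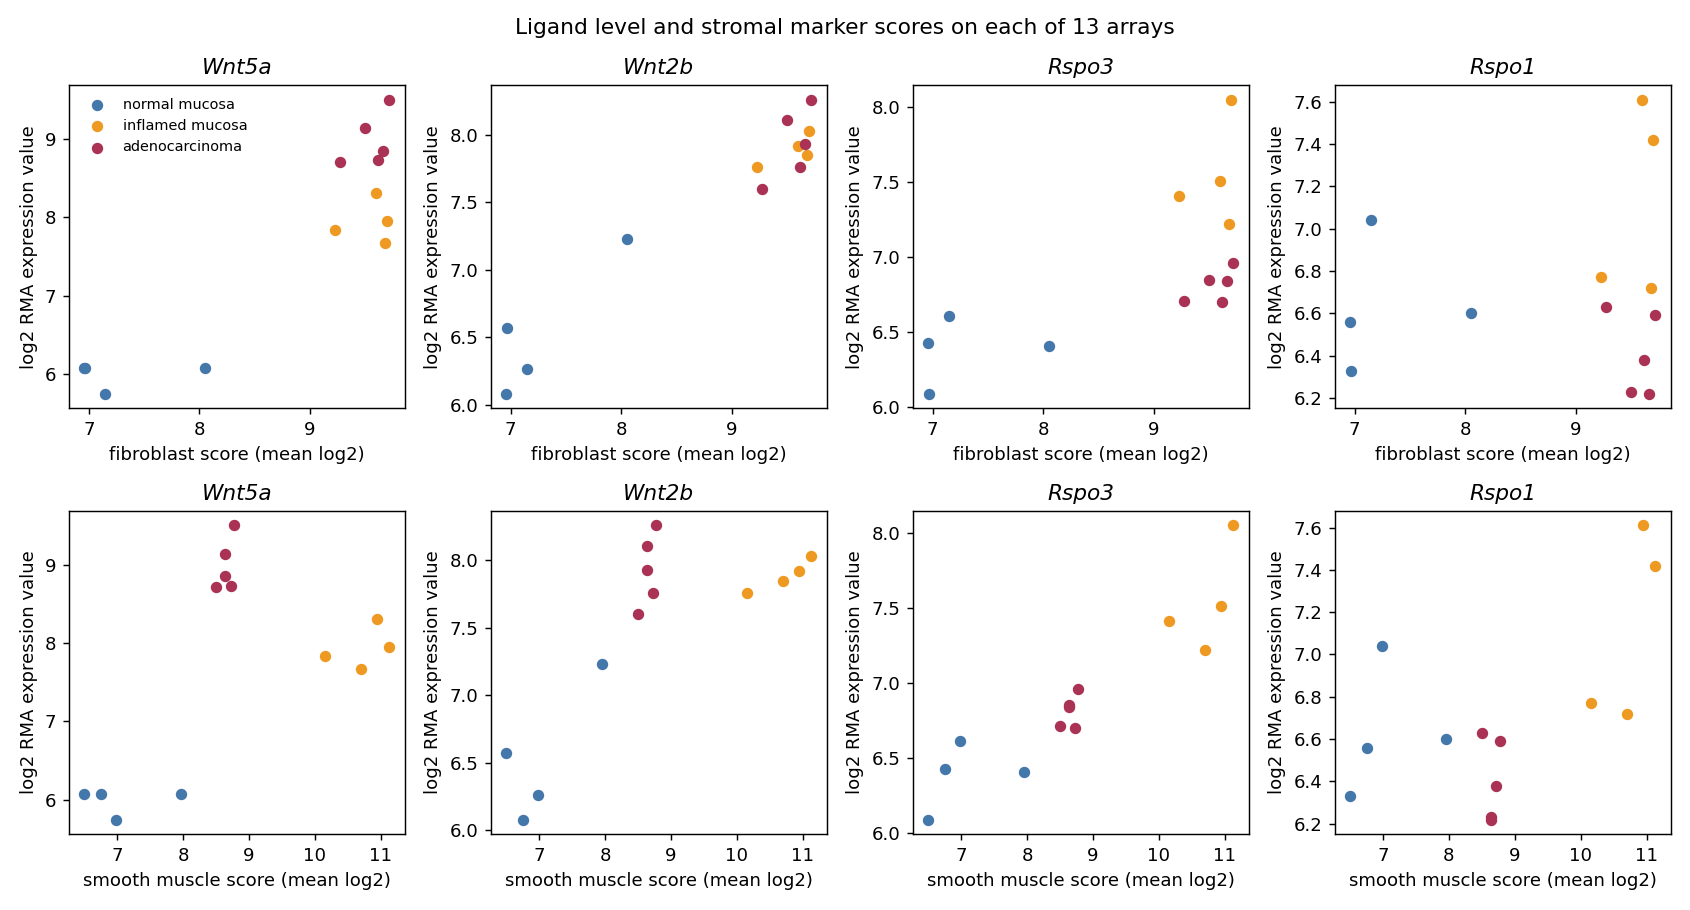
Log2 RMA expression value of the same 4 ligands (vertical axes) against the mean log2 level of fibroblast markers (top row) and smooth muscle markers (bottom row) on 13 arrays, coloured by group. At like fibroblast scores Wnt5a is higher and Rspo3 lower in tumours than in inflamed mucosa, whose smooth muscle scores do not overlap, and the normal array with a fibroblast score of 8.05 has, of these 4 ligands, a raised Wnt2b.

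The crypt niche mesenchyme, the fibroblast-like cells under the crypts that are a source of these ligands, was followed by 9 marker genes. In inflamed mucosa 5 of 9 were higher than in normal mucosa, in tumours 6 of 9, and between tumours and inflamed mucosa none was called (1 at an unadjusted p below 0.05, limma). Of all genes, 13.7% were higher in inflamed mucosa and 16.4% in tumours than in normal mucosa. Grem1, a BMP antagonist of the crypt base mesenchyme, rose by 2.92 ± 0.20 and 3.0 ± 0.19 (log2) in inflamed mucosa and tumours. Foxl1, a transcription factor of subepithelial telocytes, read 5.84 to 6.62 on all arrays, and its differences of 0.01 and 0.31 were not called (adjusted p = 0.95 and 0.109).

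The genes whose pattern over the 13 arrays was nearest to each wide-ranging ligand were found by the root mean square difference of gene-centred log2 values among 17096 other genes. Nearest to Wnt5a were Hgf (0.23), the scatter factor made by mesenchyme, with means of 5.25, 7.54 and 8.24 in normal mucosa, inflamed mucosa and tumours, and Gpm6b (0.27), a membrane proteolipid. Nearest to Wnt2b were Ptprm (0.14), a receptor tyrosine phosphatase, with means of 6.74, 8.12 and 8.28, and Nav1 (0.19). Nearest to Rspo3 were Slc10a6 (0.15), a steroid sulphate transporter, with means of 5.48, 6.49 and 5.83, and Akap12 (0.15), a kinase anchoring protein. These are descriptions, since all arrays and groups entered the ranking. The normal means of Hgf and Slc10a6 lie below the background level of 5.57.

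None of the 13 other ligands of both families was called higher. In inflamed mucosa 4 of 13 were lower than in normal mucosa (Wnt8b, -0.56, adjusted p = 0.0074; Wnt3a, -0.44; Wnt7a, -0.46; Wnt7b, -0.37) and in tumours 4 of 13 (Wnt8b, -0.43, adjusted p = 0.0176; Wnt3a, -0.42; Wnt16, -0.29; Wnt9a, -0.39). Of all genes, 13.7% and 16.4% were higher and 13% and 19.4% lower in these 2 comparisons. On all inflamed arrays Wnt8b (5.24 to 5.51) and Wnt7a (5.09 to 5.57) read no higher than the background level of 5.57. Wnt8b read 5.30 to 5.70 in tumours and 5.54 to 6.22 in normal mucosa, near that level. Between tumours and inflamed mucosa none was called by limma, and none had an unadjusted p below 0.05. The medians were -0.30, -0.23 and 0.03, beside -0.09, -0.10 and -0.01 over all genes. These falls hung on single arrays: normal mucosa 2 was the highest of the 13 arrays in 9 of the 13 genes, and without it 1 gene was lower in each of the first 2 comparisons. The first count fell to 1 or 2 also without inflamed mucosa 1, 2 or 4 or normal mucosa 1. The second did so without adenocarcinoma 2, 3 or 4, inflamed mucosa 1 or 2 or normal mucosa 6. Of the 2 genes for Wnt release, Wls, the carrier that brings Wnts to the cell surface, was 1.80-fold higher in tumours than in normal mucosa (0.84 ± 0.21, adjusted p = 0.00635) and 0.61 ± 0.22 higher in inflamed mucosa (adjusted p = 0.0512), which passed the test without normal mucosa 4 or 6. Porcn, the enzyme that attaches the lipid, differed by 0.13 and 0.09 (adjusted p = 0.424 and 0.528).

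Of 21 receptor genes 4 were higher and 3 lower in inflamed than in normal mucosa, 8 higher and 3 lower in tumours than in normal mucosa, and 3 higher and none lower in tumours than in inflamed mucosa. For comparison, 13.7% and 13% of all genes were higher and lower in the first comparison, 16.4% and 19.4% in the second and 2.91% and 4.21% in the third. The counts of receptors in inflamed mucosa are near these shares. The Frizzled receptor gene Fzd4, also an endothelial receptor, was 2.92-fold higher in inflamed mucosa (1.54 ± 0.19, limma adjusted p = 7.03e-05) and 2.20-fold higher in tumours, on arrays where 8 of 8 blood endothelial markers were higher in both. Fzd1 was 2.95-fold higher in tumours than in normal mucosa (1.56 ± 0.15, adjusted p = 3.92e-06) and 1.67-fold higher than in inflamed mucosa. Fzd5, a receptor of the intestinal epithelium, was 1.79-fold and 1.64-fold lower in inflamed mucosa and tumours. The count of 3 higher in tumours than in inflamed mucosa (Fzd1, Ptk7 and Lrp5) was 1 without adenocarcinoma 2 or 6 or inflamed mucosa 2, 3 or 4. In the fit of arrays paired by number the same 3 were higher and 4 were lower: Fzd4 (-0.47 ± 0.09, adjusted p = 0.0215), Fzd7 (-0.50 ± 0.10, adjusted p = 0.0221), Lgr5 and Ror2, a receptor of Wnt5a (-0.36 ± 0.09, adjusted p = 0.0495). Of all genes, 3.67% were higher and 5.89% lower in that fit.

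None of the receptors of R-spondins or of the ligases they remove was called higher. Lgr4 was 1.52-fold lower in both inflamed mucosa (-0.61 ± 0.15, limma adjusted p = 0.0112) and tumours (-0.60, adjusted p = 0.00604) than in normal mucosa. Lgr5, the stem cell receptor, read 6.28 to 7.93 in normal mucosa, 6.74 to 7.47 in inflamed mucosa and 6.17 to 7.42 in tumours, and its differences of 0.11, -0.19 and -0.30 were not called in the unpaired fit. Within the 4 shared numbers Lgr5 was lower in the tumour in each (-0.24, -0.57, -0.41 and -0.68), and the paired fit called it lower (-0.48 ± 0.10, adjusted p = 0.0234). Lgr6 differed by -0.28, -0.10 and 0.18, none called. Rnf43 was 1.46-fold lower in inflamed mucosa (-0.55 ± 0.14, adjusted p = 0.0129), -0.33 in tumours (adjusted p = 0.0717) and 0.22 between tumours and inflamed mucosa. Znrf3 differed by 0.47 (adjusted p = 0.0509), 0.16 and -0.31.

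Targets of β-catenin were counted in the same way. Of 15 measured target genes (of 17 listed), 4 were higher and 2 lower in inflamed than in normal mucosa, 3 higher and 1 lower in tumours than in normal mucosa, and 1 higher and 2 lower in tumours than in inflamed mucosa. Of these, 2 of 15 lower in inflamed mucosa and 3 of 15 higher in tumours against normal mucosa are near the shares of all genes given above. Axin2, the feedback inhibitor often used as a gauge of the pathway, read 7.22 to 8.26 in normal mucosa, 8.16 to 8.35 in inflamed mucosa and 7.56 to 8.15 in tumours. Its differences were 0.45 ± 0.20 (limma adjusted p = 0.105), 0.11 ± 0.19 (adjusted p = 0.661) and -0.34 ± 0.19 (adjusted p = 0.366). All tumours read below all inflamed arrays, so it was lower in 4 of 4 shared numbers whatever the pairing. The paired fit called it lower in tumours (-0.41 ± 0.09, adjusted p = 0.0322). That fit called 4 of 15 targets lower (Axin2, Lgr5, Nkd1 and Ascl2) and 3 higher (Ccnd1, Myc and Cd44) in tumours than in inflamed mucosa. Of all genes, it called 5.89% lower and 3.67% higher. Lgr5, Rnf43 and Znrf3 are also counted among the receptors, and Notum among the antagonists. Nkd1, another feedback inhibitor, was 1.72-fold higher in inflamed than in normal mucosa (0.78 ± 0.13, adjusted p = 0.000905) and 1.59-fold lower in tumours than in inflamed mucosa (-0.67 ± 0.13, adjusted p = 0.0061). Ascl2, a transcription factor of crypt stem cells, was 1.84-fold lower in tumours than in normal mucosa and 1.76-fold lower than in inflamed mucosa. Ccnd1 (cyclin D1), Myc and Cd44, which many signals besides Wnt raise, were 3.42-fold, 2.86-fold and 6.09-fold higher in tumours than in normal mucosa. The 4 higher targets in inflamed mucosa became 2 without the 3 arrays with high Krt5, and the single higher one in tumours against inflamed mucosa (Ccnd1, 1.10 ± 0.18, adjusted p = 0.00214) became 3 without normal mucosa 1. The counts of lower targets varied between 1 and 2 with 1 array left out.

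Several secreted antagonists, which keep Wnts from their receptors, were called higher. Of 11 genes, 4 were higher and 1 (Notum, -0.35) lower in inflamed than in normal mucosa, 4 higher in tumours than in normal mucosa, and 1 higher in tumours than in inflamed mucosa (with Sfrp1 lower in the paired fit, -0.62 ± 0.14, adjusted p = 0.0371). Of all genes, 13.7%, 16.4% and 2.91% were higher and 13%, 19.4% and 4.21% lower in these 3 comparisons. The count of 1 of 11 lower in inflamed mucosa is near that share. Sfrp2, a stromal protein that binds Wnts, was 9.63-fold higher in inflamed mucosa and 7.83-fold higher in tumours. Frzb, a relative of it, was 3.04-fold and 3.67-fold higher, and Dkk3 4.10-fold and 3.72-fold. Wif1, which also binds Wnts, was 3.12-fold higher in tumours than in normal mucosa and 2.53-fold higher than in inflamed mucosa (1.34 ± 0.17, limma adjusted p = 0.000434), the same direction as Wnt5a in that comparison. The call of Notum was lost without adenocarcinoma 2, inflamed mucosa 2, 3 or 4 or normal mucosa 2 or 6.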

How the data were processed

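The 13 arrays (Affymetrix Mouse Gene ST 1.0, biotin-labelled cDNA from total RNA) were deposited by the authors as log2 values per transcript cluster, obtained by RMA with Affymetrix Expression Console 1.1 per the labels and the series' design text. Images were processed with Command Console 2.0, and the submitters' processing notes name Partek without a role. RMA removes differences in total RNA and compresses those of dim genes. No genome build of the array is named in the sources used here. Array medians were 6.41 to 6.59.

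Of 35556 clusters, 21789 name 1 gene, 1621 several and 12146 are not listed in the annotation. The cluster with the highest mean per gene was kept. The 3 groups were fitted together with limma 3.58.1 in R 4.3.3 (lmFit, eBayes, Benjamini-Hochberg over 19938 genes, threshold 0.05, no block, no filter), and the procedure was tested on simulated data. The number of arrays limits precision. Promoters came from RefSeq tables of GRCm38.p6. The ligands and gene lists were chosen with earlier results of these data known. Named were all 10 ligands and, per list and comparison, at most the 4 genes with the smallest adjusted p, plus Axin2, Lgr4, Lgr5, Lgr6, Rnf43 and Znrf3. Fzd7, Ror2, Sfrp1, Notum, Lyve1, Pdpn, Ret, Dsg3, Msln, Upk1b, Wt1, Upk3b, Lrrn4, Krt5, Grem1 and Foxl1 were named after their values were seen. Genes nearest to a ligand were sought for those with an SD of at least 0.5, leaving out predicted, immunoglobulin, receptor segment and olfactory genes.

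Tumour and inflamed arrays of 1 number have the same sex and age, and within such pairs the residuals correlated at 0.319, 0.198, 0.199 and 0.387. Tumour and inflamed arrays of different numbers correlated at -0.318 to 0.185. The pairs were therefore taken as paired in an alternative fit, whereas the main fit and its calls use no block. Normal arrays correlated with the same number in other groups at -0.126 to 0.0413 and were left out of that paired fit. With different numbers they correlated at up to 0.283. Alternatives covered replicate blocks, sex, age, stromal scores, array weights, normalisation, clusters, the dimmest genes and each array left out.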

Additional observations from a re-analysis of the deposited data

Results flagged for a closer look

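Of 30 groups of values (10 ligands in 3 tissues), 3 held a value far from the others of its group. In these groups of 4 arrays the gap to the nearest value exceeded 0.829 of the group's range. A lower limit was used for the tumour groups of 5 arrays. Chance alone gives about 1 in 20 groups. Wnt4 on inflamed mucosa 3 was 7.82, with the next array at 7.26. Wnt5a on normal mucosa 2 was 5.75, below the other 3 normal arrays at 6.08. Rspo2 on normal mucosa 2 was 5.91, above the next at 5.69. Normal mucosa 2 was also the highest of all 13 arrays in 4 of the 10 ligands.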

How the results depend on the processing

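Of 932 recomputed values (the ligands' differences and counts of calls under each alternative), 866 kept their call or a count within 1.5 times. A call was lost in 46 and gained in 5, 6 changed sign and 9 counts moved by over 1.5 times. A change of sign was counted only where at least 1 of the 2 fits called the difference. Small differences called in neither fit also crossed 0, such as Wnt4 between inflamed and normal mucosa (-0.17 to 0.09 with 1 array left out). The 6 counted sign changes came with a stromal score as a covariate, where normal arrays do not overlap the others. With the fibroblast score Wnt2b was -0.52 and Wnt10a 0.26 between inflamed and normal mucosa, and -0.48 and 0.31 between tumours and normal mucosa. With the smooth muscle score they were -0.63 and 0.22 between inflamed and normal mucosa. Of 4, 4 and 3 ligands called (inflamed against normal, tumours against normal, tumours against inflamed), limma with the fibroblast score called 0 in the first and 0 in the second (1 each at an unadjusted p below 0.05), where 1 and 31 of all 19938 genes were called, and with the smooth muscle score 0, 1 (Wnt5a) and 0 (0, 1 and 2 unadjusted), where 0, 776 and 12 genes were called. These fits lost nearly all calls of the array and single out no ligand. Without the 3 arrays with high Krt5, an alternative chosen after seeing the data, the second count was 2. With 1 array left out at a time the counts ranged from 3 to 5, from 2 to 4 and from 2 to 3. With a fixed replicate block the counts were 4, 4 and 2, and with the paired block in tumours and inflamed mucosa the last was 2, Rspo1 being the ligand lost (-0.70, adjusted p = 0.0792, and -0.67, adjusted p = 0.0582). The block changed no other call of a ligand. Other calls that changed in the paired fit are given with the receptors, targets and antagonists and with the fibroblast, smooth muscle, lymphatic and macrophage markers. Of the 8 squamous markers 1 was higher in tumours than in inflamed mucosa, and 2 in the paired fit. Of 6 enteric neuron markers 4 were lower and 1 (Ret) was higher in the same comparison, and 3 and 1 in the paired fit. Of all genes, 4.21% were lower and 2.91% higher there, and 5.89% and 3.67% in the paired fit. Rspo2 fell under the filter that drops the dimmest 25% of genes. The small number of arrays and values near background limit what can be seen of Wnt2 and Rspo2.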
